A study of Homo sapiens with 4 samples.

Results

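Transcripts of 10 genes that report and restrain signalling through the kinase ERK were followed in Panc1, a long-established line of human pancreatic ductal carcinoma cells. The 10 genes are the phosphatase genes DUSP4, DUSP5 and DUSP6, the inhibitor genes SPRY2, SPRY4, SPRED1 and SPRED2, the transcription factor genes ETV4 and ETV5, and PHLDA1. They were chosen by gene symbol with earlier results of these data known, and all 10 were found among the 54628 genes of the count tables. Poly(A) RNA was sequenced in 2 libraries labelled as treated with HMGB2 siRNA, a small interfering RNA against the chromatin protein HMGB2, and in 2 labelled as treated with scramble siRNA, a control sequence. The siRNA sequences, the dose and the time after transfection are not given in the sources used here, and the labels do not say whether the 2 replicates of a group were separate cultures. The p-values therefore rest on the spread between libraries that may be technical repeats, with information on spread shared across genes by the fit.

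As background, ERK is the last kinase of a relay in which receptors on the cell surface load RAS with GTP, RAS activates RAF kinases, RAF activates MEK and MEK activates ERK. Active ERK switches on the transcription of its own brakes, so the transcripts of DUSP, Sprouty and Spred genes and of PEA3-family ETS factors are widely read as a record of the pathway's output.

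The targeted gene went against the labels. HMGB2 counts were 4021 and 2746 in the HMGB2 siRNA-labelled libraries, against 346 and 319 in the scramble-labelled libraries. As CPM, the count scaled to an equal library size, this was 128 and 134 CPM in the HMGB2 siRNA-labelled libraries, against 15.7 and 15.3 CPM in the scramble-labelled libraries. The header of the count column also names the other treatment in all 4 tables. The HMGB2 siRNA-labelled libraries are therefore called HMGB2-high below and the scramble-labelled libraries HMGB2-low, and every log2 fold change is the HMGB2 siRNA-labelled libraries (HMGB2-high) minus the scramble-labelled libraries (HMGB2-low). Read by the column headers instead of the labels, each direction would be that of scramble minus HMGB2 knockdown.

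Of the 10 genes, 5 were lower in the HMGB2 siRNA-labelled libraries (HMGB2-high) than in the scramble-labelled libraries (HMGB2-low): SPRY4, DUSP6, PHLDA1, SPRED2 and ETV4. None was called higher, DUSP5, SPRY2, SPRED1 and ETV5 did not pass the test, and DUSP4 had too few counts to be tested. The test was edgeR's quasi-likelihood test with p-values adjusted by the Benjamini-Hochberg method over the 15161 genes that passed the filter on low counts, and a gene was called at an adjusted p under 0.05. In the same test 14.1% of all genes tested were called lower and 16.7% higher, so that 30.8% were called. Of all called genes 54.3% were higher with TMM scaling, 42.0% with upper-quartile scaling and 43.3% with total counts, while the number of members called lower was 5, 6 and 6 and the number called higher 0 in each case. The 5 called genes fell by 0.35 to 0.64 on the log2 scale, with a median log2 fold change of -0.35 for the 9 tested members, against -0.0063 for all tested genes. The members were chosen with earlier results of these data known, so these contrasts with all genes describe the set and do not test it. For 6 of the 9 tested members both HMGB2-high libraries lay below both HMGB2-low libraries, and for the other 3 the groups overlapped. In RNA from whole cultures, less transcript in every cell and fewer cells with the transcript cannot be told apart. Over all tested genes the groups did not overlap for 63.7%, which divides into 32.0% with the HMGB2-high libraries above and 31.6% with them below. The 0 calls in the higher direction also held with DESeq2 and with limma-voom, and 0 members with a positive log2 fold change had an unadjusted p under 0.05.

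Markers of epithelial and pancreatic carcinoma cells also differed between the groups, in the opposite direction to the called members. Of 7 such genes, 5 were called higher in the HMGB2 siRNA-labelled libraries (HMGB2-high), namely CDH1, KRT19, KRT7, KRT8 and MSLN. KRT18 and EPCAM did not pass. Among all genes tested 16.7% were called higher. CDH1, the adhesion protein E-cadherin, had 19.6 and 20.5 CPM in the HMGB2 siRNA-labelled libraries, against 8.90 and 8.40 CPM in the scramble-labelled libraries (log2 fold change 1.21, edgeR adjusted p = 1.06e-11). KRT19, a ductal keratin, had 722 and 691 CPM in the HMGB2 siRNA-labelled libraries, against 481 and 398 CPM in the scramble-labelled libraries (log2 fold change 0.69, edgeR adjusted p = 3.15e-11). KRT8 had 2722 and 2772 CPM in the HMGB2 siRNA-labelled libraries, against 2541 and 1960 CPM in the scramble-labelled libraries. The scramble values of KRT8 lay further apart than the group means. MSLN had few counts, 72 and 27 in the HMGB2 siRNA-labelled libraries against 19 and 23 (edgeR adjusted p = 0.0414). The marker calls were not checked with libraries left out. Of 3 mesenchymal genes, CDH2 was called higher (log2 fold change 0.43, edgeR adjusted p = 0.0141), and VIM and FN1 did not pass. The part of these differences in the members' results was not tested.

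**Figure D1:**
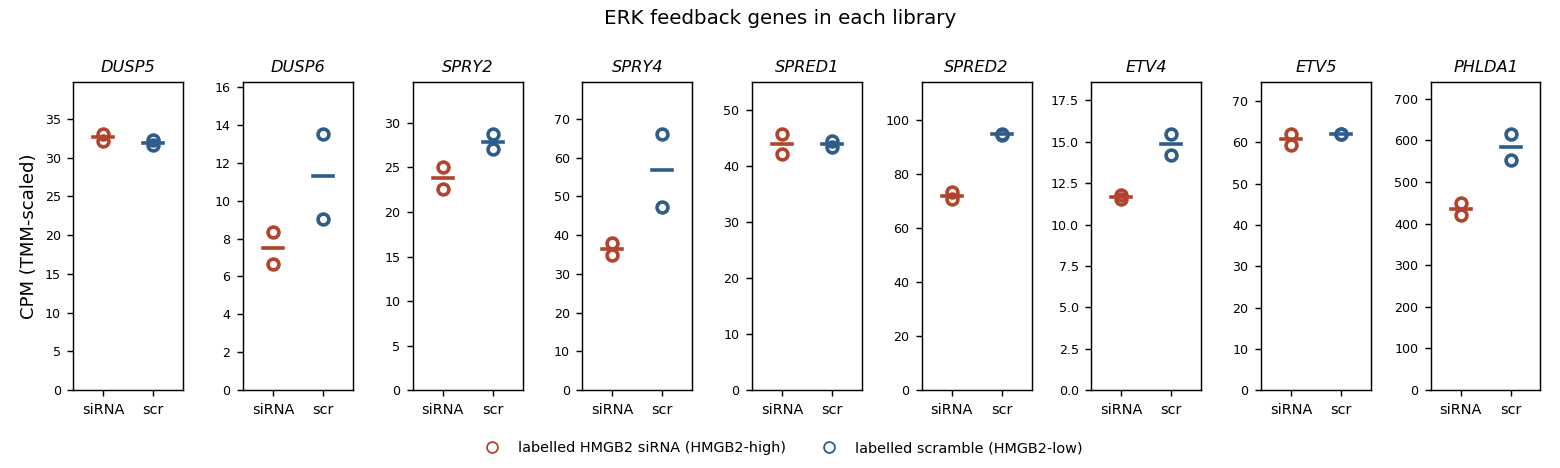
CPM (vertical axes, each from 0) of the 9 tested ERK feedback genes in the 2 HMGB2 siRNA-labelled libraries (red circles, HMGB2-high) and the 2 labelled scramble (blue circles, HMGB2-low), with bars at the group means. Both red circles lie below both blue circles for DUSP6, SPRY2, SPRY4, SPRED2, ETV4 and PHLDA1, and the blue circles of DUSP6 and SPRY4 lie far apart.

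Of the 5 genes called lower, DUSP6, SPRY4, SPRED2 and PHLDA1 had a promoter entry in RefSeq (GRCh38.p14). These entries are shown because the 4 genes were called in the same direction. Each runs from 250 bases before to 50 bases after an annotated start, 5′ to 3′ on the strand of the gene, and SPRED2 has 2 annotated starts. Capitals mark matches on either strand to AP-1 (TGANTCA, which reads the same on both strands), CRE (ACGTCA) or ETS (CCGGAA) letters. No match to the CArG box, the binding sequence of SRF, was found.
DUSP6 (chr12:89352452-89352751, minus strand): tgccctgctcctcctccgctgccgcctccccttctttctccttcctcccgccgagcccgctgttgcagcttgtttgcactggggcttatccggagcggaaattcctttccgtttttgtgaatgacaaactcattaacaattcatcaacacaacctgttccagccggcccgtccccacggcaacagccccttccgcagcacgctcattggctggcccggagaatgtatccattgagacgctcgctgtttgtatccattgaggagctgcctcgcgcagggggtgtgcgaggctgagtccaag
SPRY4 (chr5:142324198-142324497, minus strand): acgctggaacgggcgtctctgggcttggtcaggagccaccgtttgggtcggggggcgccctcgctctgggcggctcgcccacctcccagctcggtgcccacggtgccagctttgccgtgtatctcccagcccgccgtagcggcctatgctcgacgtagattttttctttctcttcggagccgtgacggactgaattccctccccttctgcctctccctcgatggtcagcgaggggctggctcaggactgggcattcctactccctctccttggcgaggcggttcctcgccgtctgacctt
SPRED2 upstream start (chr2:65432550-65432849, minus strand): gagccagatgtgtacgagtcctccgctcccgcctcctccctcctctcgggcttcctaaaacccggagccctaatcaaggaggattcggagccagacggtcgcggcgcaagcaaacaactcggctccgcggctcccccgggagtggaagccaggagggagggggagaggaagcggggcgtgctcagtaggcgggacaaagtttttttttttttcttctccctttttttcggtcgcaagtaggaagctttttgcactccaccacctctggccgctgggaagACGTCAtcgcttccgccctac
SPRED2 downstream start (chr2:65366729-65367028, minus strand): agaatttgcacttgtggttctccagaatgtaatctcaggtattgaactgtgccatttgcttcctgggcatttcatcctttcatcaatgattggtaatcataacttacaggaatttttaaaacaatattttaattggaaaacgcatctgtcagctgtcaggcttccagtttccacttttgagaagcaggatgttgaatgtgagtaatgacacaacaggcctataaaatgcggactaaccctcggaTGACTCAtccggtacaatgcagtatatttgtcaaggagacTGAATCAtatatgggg
PHLDA1 (chr12:76031727-76032026, minus strand): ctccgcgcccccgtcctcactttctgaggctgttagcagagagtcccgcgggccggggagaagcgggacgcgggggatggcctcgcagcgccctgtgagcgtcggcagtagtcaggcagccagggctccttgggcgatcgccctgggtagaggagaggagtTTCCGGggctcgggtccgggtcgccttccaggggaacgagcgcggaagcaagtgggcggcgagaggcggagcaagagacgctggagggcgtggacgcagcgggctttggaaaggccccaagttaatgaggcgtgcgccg

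The DUSP6 and SPRY4 windows held none of the searched motifs. PHLDA1 held the ETS letters at positions -89 to -84 from its start, on the opposite strand. SPRED2 held the CRE letters at positions 30 to 35 of its upstream start, and its downstream start held the AP-1 letters at 2 places. Among SPRY2 and SPRED1, the members not called that have an entry, 1 of the 3 SPRY2 windows held the ETS letters and the SPRED1 window held none. Of the 9 windows of members, 2 held ETS letters, 1 AP-1 letters, 1 CRE letters and 0 a CArG box. In all 35114 promoter windows of this table the shares were 17.2% for ETS, 7.71% for AP-1, 7.98% for CRE and 1.29% for the CArG box. No match overlapped a match to another motif in the members' windows.

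The phosphatase genes encode enzymes that remove the activating phosphates from ERK. DUSP6 (GRCh38 chromosome 12, 89347235 to 89352501, minus strand), whose product acts in the cytoplasm and is selective for ERK, had 8.33 and 6.68 CPM in the HMGB2 siRNA-labelled libraries (HMGB2-high), against 9.04 and 13.5 CPM in the scramble-labelled libraries (HMGB2-low). The groups did not overlap, but the 2 scramble libraries lay 4.5 CPM apart, more than the difference of -3.78 CPM between the group means. The log2 fold change was -0.57 ± 0.15 (SE, n = 2 each; edgeR adjusted p = 0.00338). DESeq2 gave DUSP6 an adjusted p of 0.0401. The call ended without scramble replicate 2 (-0.25, edgeR adjusted p = 0.269) and without replicate 2 labelled HMGB2 siRNA (-0.43, edgeR adjusted p = 0.0871). DUSP6 is also the least abundant tested member, with 137 to 282 counts per library.

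DUSP5 (chromosome 10, 110497907 to 110511533, plus strand) encodes the nuclear counterpart that is selective for ERK. It had 33.1 and 32.2 CPM in the HMGB2 siRNA-labelled libraries (HMGB2-high) and 32.3 and 31.6 CPM in the scramble-labelled libraries (HMGB2-low). The values of the groups overlapped, and the log2 fold change was 0.03 with a 95% interval from -0.14 to 0.21 (edgeR adjusted p = 0.823). DUSP4 (chromosome 8, 29333064 to 29350684, minus strand), a nuclear phosphatase of ERK and other MAP kinases, had 5 and 2 counts in the HMGB2 siRNA-labelled libraries and 1 and 0 counts in the scramble-labelled libraries. That is close to the limit of detection, since a library without reads of a gene could still hold up to 3 counts of its total, which is 0.0942 to 0.147 CPM, and no fold change was drawn.

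Sprouty proteins dampen signalling between growth factor receptors and RAF. SPRY4 (chromosome 5, 142310430 to 142325021, minus strand) had 34.9 and 37.9 CPM in the HMGB2 siRNA-labelled libraries (HMGB2-high), against 47.3 and 66.2 CPM in the scramble-labelled libraries (HMGB2-low). All values labelled scramble were higher, and the 2 scramble libraries were themselves far apart. Its log2 fold change was -0.64 ± 0.09 (SE, n = 2 each; edgeR adjusted p = 2.86e-07), the lowest of the 9 tested members. That SE draws on the spread of other genes as well as on these libraries. DESeq2 gave SPRY4 an adjusted p of 0.0353. Without scramble replicate 2 the call held at -0.38 (edgeR adjusted p = 3.9e-05), and without scramble replicate 1 it was -0.86. The noncoding transcript SPRY4-IT1, which shares 697 bases with the exons of SPRY4 on the same strand, had 0 counts in both HMGB2 siRNA-labelled libraries and 0 and 1 in the scramble-labelled libraries. Reads in the shared bases may not have been counted for either gene, so these counts may not measure the level of SPRY4-IT1.

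SPRY2 (chromosome 13, 80335976 to 80341126, minus strand) had 22.6 and 25.0 CPM in the HMGB2 siRNA-labelled libraries (HMGB2-high) and 27.0 and 28.8 CPM in the scramble-labelled libraries (HMGB2-low). The groups did not overlap, yet the gene stood just outside the threshold with a log2 fold change of -0.24 ± 0.10 (SE, n = 2 each; edgeR adjusted p = 0.0545). It was called lower with upper-quartile scaling (adjusted p = 0.0186), with total-count scaling (adjusted p = 0.0269), with a filter at a mean of 1 CPM (adjusted p = 0.0437), with limma-voom (adjusted p = 0.0456) and without scramble replicate 1 (adjusted p = 0.0188). DESeq2 did not call it (adjusted p = 0.168).

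Spred proteins bind neurofibromin and bring it to the membrane, where it returns RAS to its inactive form. The paralogs SPRED1 and SPRED2 differed in their values. SPRED2 (chromosome 2, 65307425 to 65432599, minus strand) had 70.7 and 73.1 CPM in the HMGB2 siRNA-labelled libraries (HMGB2-high), against 94.6 and 94.9 CPM in the scramble-labelled libraries (HMGB2-low). Its replicates lay close together in both groups and the groups were well apart, with a log2 fold change of -0.40 ± 0.07 (SE, n = 2 each; edgeR adjusted p = 8.25e-06) that stayed between -0.42 and -0.37 when each library was left out in turn. SPRED1 (chromosome 15, 38252087 to 38357249, plus strand) had 45.8 and 42.2 CPM in the HMGB2 siRNA-labelled libraries and 43.5 and 44.5 CPM in the scramble-labelled libraries. These values overlapped, and the 95% interval of the SPRED1 log2 fold change ran from -0.16 to 0.16. The intervals of the 2 paralogs did not overlap, since that of SPRED2 ran from -0.54 to -0.26, but the difference between the paralogs was not tested.

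ETV4 and ETV5 encode transcription factors of the PEA3 group of the ETS family, which carry ERK and fibroblast growth factor signals to their target genes. ETV4 (chromosome 17, 43527843 to 43546340, minus strand) had 11.5 and 11.8 CPM in the HMGB2 siRNA-labelled libraries (HMGB2-high), against 15.5 and 14.2 CPM in the scramble-labelled libraries (HMGB2-low). The groups did not overlap, and the log2 fold change was -0.35 ± 0.12 (SE, n = 2 each; edgeR adjusted p = 0.0203). This call was the least firm of the 5. It ended with DESeq2 (adjusted p = 0.103) and without replicate 1 labelled HMGB2 siRNA (-0.33, adjusted p = 0.197), without replicate 2 of that label (-0.36, adjusted p = 0.118) or without scramble replicate 1 (-0.28, adjusted p = 0.0881). The exons of ETV4 share 54 bases with DHX8 on the opposite strand, 1.99% of its exon length, and DHX8 had 986 to 1553 counts. ETV5 (chromosome 3, 186046314 to 186109089, minus strand) had 62.1 and 59.4 CPM in the HMGB2 siRNA-labelled libraries and 61.9 and 62.1 CPM in the scramble-labelled libraries. Its groups overlapped, with a log2 fold change of -0.029 and a 95% interval from -0.18 to 0.12.

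PHLDA1 (chromosome 12, 76025447 to 76031776, minus strand) encodes a protein with a pleckstrin homology-like domain, and its transcript is a member of expression scores of MAP kinase activity in tumours. It was the most abundant member, with 450.1 and 419.7 CPM in the HMGB2 siRNA-labelled libraries (HMGB2-high), against 552.7 and 616.4 CPM in the scramble-labelled libraries (HMGB2-low). The groups were clearly apart, and the log2 fold change was -0.43 ± 0.07 (SE, n = 2 each; edgeR adjusted p = 1.18e-06). It remained between -0.50 and -0.34 when each library was left out in turn, with all 4 calls kept.

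**Figure D2:**
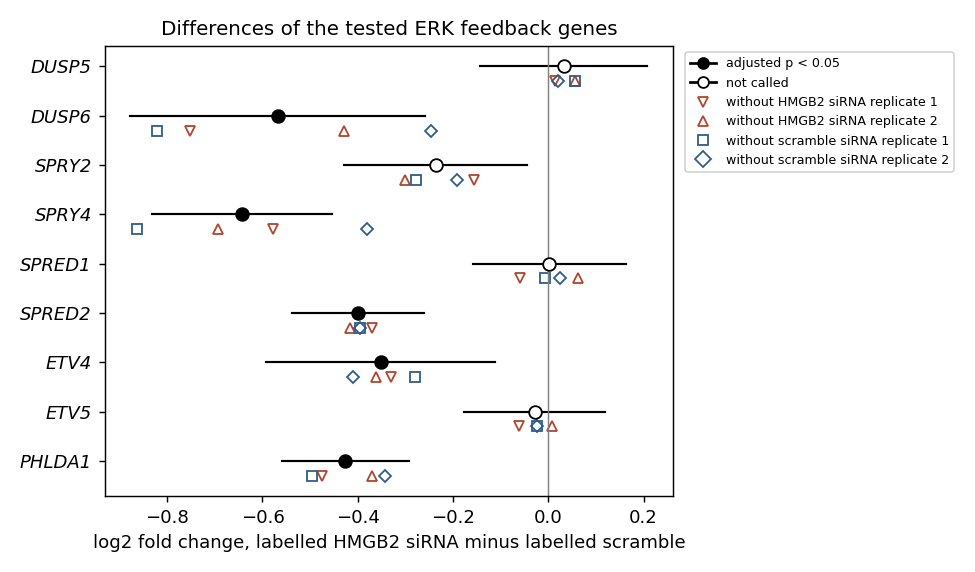
Log2 fold change (horizontal axis, labelled HMGB2 siRNA minus labelled scramble) of the 9 tested members with 95% intervals, filled where the edgeR adjusted p was under 0.05, and below each the value without 1 library. The values of DUSP6 and SPRY4 spread widely with the library left out, to -0.25 and -0.38 without scramble replicate 2, while those of SPRED2 stay between -0.42 and -0.37.

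The spread between replicates differed from member to member. In the scramble-labelled libraries (HMGB2-low), replicate 2 had 1.5 times the DUSP6 CPM and 1.40 times the SPRY4 CPM of replicate 1, which are absolute log2 ratios of 0.58 and 0.49. The median of this ratio over all tested genes was 0.13 in that group, and 8.86% and 11.6% of tested genes had replicates at least as far apart as DUSP6 and SPRY4. In the HMGB2 siRNA-labelled libraries (HMGB2-high), replicate 2 had 0.801 times the DUSP6 CPM and 1.09 times the SPRY4 CPM of replicate 1, against a median absolute log2 ratio of 0.092 over all tested genes. SPRED2 and ETV5 were close to identical between the scramble libraries, with 1.0 times the CPM in replicate 2 in both cases. Scramble replicate 2, with the highest DUSP6, SPRY4 and PHLDA1 values, also had the lowest summed level of 7 epithelial and pancreatic carcinoma markers. All 7 were detected. The sums were 4554 and 4607 CPM in the HMGB2 siRNA-labelled libraries, against 4194 and 3272 CPM in the scramble-labelled libraries. Most of the sum was KRT8, KRT18 and KRT19, at 1960, 886 and 398 CPM in scramble replicate 2. CDH1 and EPCAM were slightly lower there than in scramble replicate 1. KRT7 and MSLN were higher in scramble replicate 2 (3.02 and 1.10 CPM) than in replicate 1 (2.59 and 0.863 CPM). The part of this marker sum in the members' results was not tested.

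**Figure D3:**
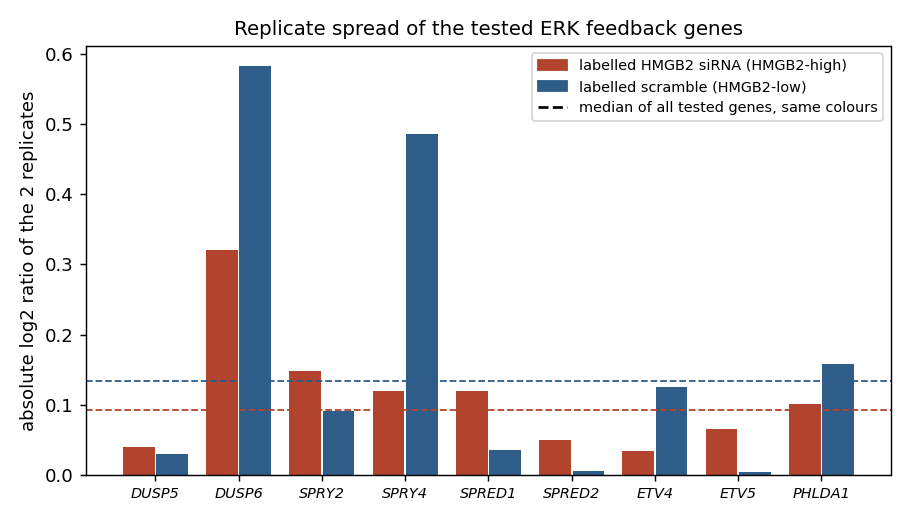
Absolute log2 ratio of the CPM of the 2 replicates (vertical axis) for each tested member in the HMGB2 siRNA-labelled libraries (red bars) and the scramble-labelled libraries (blue bars), with the medians over all tested genes as dashed lines at 0.092 and 0.13. DUSP6 and SPRY4 stand above the other members in the scramble libraries, at 0.58 and 0.49.

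Levels were compared between members per exon length, as RPKM, which is CPM divided by exon length in kilobases. PHLDA1 stood first in both groups, with a level of 73.6 ± 3.6 RPKM in the HMGB2 siRNA-labelled libraries (HMGB2-high) and 98.9 ± 7.6 RPKM in the scramble-labelled libraries (HMGB2-low; SD, n = 2 each). In the HMGB2 siRNA-labelled libraries the order then ran ETV5 (14.9 RPKM), DUSP5 (13.2 RPKM), SPRED2 (11.5 RPKM), SPRY2 (6.86 RPKM), SPRY4 (5.08 RPKM), SPRED1 (4.94 RPKM), ETV4 (4.30 RPKM) and DUSP6 (2.07 RPKM), and of these neighbours only SPRY4 and SPRED1 overlapped in their 2 libraries. In the scramble-labelled libraries it ran SPRED2 and ETV5 (both 15.2 RPKM, overlapping), DUSP5 (12.9 RPKM), SPRY2 and SPRY4 (8.06 and 7.93 RPKM, overlapping), ETV4 (5.48 RPKM), SPRED1 (4.95 RPKM) and DUSP6 (3.11 RPKM). DUSP4 was last in both, at 0.018 RPKM in the HMGB2 siRNA-labelled libraries and 0.0031 RPKM in the scramble-labelled libraries. SPRED2 thus stood below ETV5 and DUSP5 in the HMGB2 siRNA-labelled libraries, and level with ETV5 in the scramble-labelled libraries.

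Other genes of the pathway were called in both directions. Over 95 further genes in 7 lists, 85 were tested, of which 18 were higher and 13 lower in the HMGB2 siRNA-labelled libraries (HMGB2-high) with 54 not called and a median log2 fold change of 0.026. That is 21.2% called higher and 15.3% called lower, against 16.7% and 14.1% of all genes tested. The lists, like the members, were chosen with earlier results of these data known. The members' closest relatives were mixed. SPRY1, the third tested Sprouty gene, had 24.2 and 26.4 CPM in the HMGB2 siRNA-labelled libraries against 31.2 and 30.6 CPM in the scramble-labelled libraries and was lower (log2 fold change -0.29, edgeR adjusted p = 0.0122), a call that ended with DESeq2 (adjusted p = 0.0579) and without either library labelled HMGB2 siRNA (adjusted p = 0.302 and 0.0592). ETV1, the third PEA3-group gene, had 10.6 and 9.60 CPM in the HMGB2 siRNA-labelled libraries against 12.3 and 17.0 CPM in the scramble-labelled libraries and was lower (-0.53, edgeR adjusted p = 0.00151). The ETV1 call ended without scramble replicate 2 (-0.28, adjusted p = 0.124), the library with the highest DUSP6 and SPRY4 values.

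DUSP1, an immediate early phosphatase that acts mainly on the stress kinases, went the other way. It had 105 and 102 CPM in the HMGB2 siRNA-labelled libraries (HMGB2-high), against 81.1 and 63.5 CPM in the scramble-labelled libraries (HMGB2-low), and its log2 fold change was 0.52 ± 0.08 (SE, n = 2 each; edgeR adjusted p = 4.14e-07). DUSP1 was the only call among 6 tested phosphatase genes outside the members, a share of 16.7%, against 30.8% called among all genes tested. Of 10 tested genes in the list of other Sprouty, Spred and feedback inhibitors, 2 were higher and 1 lower. These are 20% and 10%, against 16.7% and 14.1% of all genes tested. The higher ones were CBL, a ubiquitin ligase of growth factor receptors (0.26), and RASSF1, a tumour suppressor scaffold (0.39, log2 fold changes), and both calls ended without replicate 2 labelled HMGB2 siRNA (adjusted p = 0.105 and 0.0633). CBL and RASSF1 share exonic sequence with MCAM and RASSF1-AS1 on the opposite strand.

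In the relay itself, 3 of 18 tested genes were higher and 2 lower in the HMGB2 siRNA-labelled libraries (HMGB2-high). These shares of 16.7% and 11.1% lay near the 16.7% and 14.1% of all genes tested. MKNK2, a kinase that ERK activates and that phosphorylates the cap-binding factor of translation, had 251 ± 0.80 CPM in the HMGB2 siRNA-labelled libraries against 159.8 ± 5.1 CPM in the scramble-labelled libraries (SD, n = 2 each), with a log2 fold change of 0.65. KSR1, a scaffold for RAF, MEK and ERK, had 17.0 ± 1.7 CPM in the HMGB2 siRNA-labelled libraries against 11.8 ± 0.40 CPM in the scramble-labelled libraries. MAPKAPK2, a kinase mostly under the stress kinase p38, had 104 ± 2.9 CPM in the HMGB2 siRNA-labelled libraries against 88.2 ± 3.1 CPM in the scramble-labelled libraries (SD, n = 2 each for both genes). NRAS averaged 129 ± 2.7 CPM in the HMGB2 siRNA-labelled libraries against 162 ± 13 CPM in the scramble-labelled libraries (SD, n = 2 each), and its log2 fold change was -0.33. HRAS, named after its values were seen, had 0 counts in all 4 libraries, and its exons are listed on 1 alternative sequence of the assembly as well, and how reads that map to both were counted is not given in the sources used here. The kinase genes ARAF, BRAF, MAP2K1, MAP2K2 and MAPK3, named for their place in the relay after their values were seen, did not pass, with log2 fold changes from -0.13 for MAPK3 to 0.16 for ARAF.

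Genes that load RAS or return it to its inactive form were called in both directions. Of 12 tested activators and adaptors 3 were higher and 0 lower in the HMGB2 siRNA-labelled libraries (HMGB2-high). These are 25% and 0%, against 16.7% and 14.1% of all genes tested. FRS2, the docking protein of fibroblast growth factor receptors, had a log2 fold change of 0.40, the adaptor SHC1 of 0.19 and the exchange factor RASGRF2 of 0.23. RASGRF2 lay at the threshold (edgeR adjusted p = 0.0497), and its call ended under 12 of 14 alternatives. The GTPase-activating proteins had 2 higher and 1 lower of 7 tested, or 28.6% and 14.3%. NF1, which encodes the neurofibromin that Spred proteins bind, had 106 ± 0.73 CPM in the HMGB2 siRNA-labelled libraries against 77.5 ± 4.0 CPM in the scramble-labelled libraries (SD, n = 2 each), for which the log2 fold change was 0.46 ± 0.07 (SE; edgeR adjusted p = 5.73e-07). RASA2 was at 0.30 and RASA1 at -0.34 (log2 fold changes). SHC1, RASGRF2 and RASA1 share exonic sequence with LOC101928120, RASGRF2-AS1 and CCNH on the opposite strand.

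**Figure D4:**
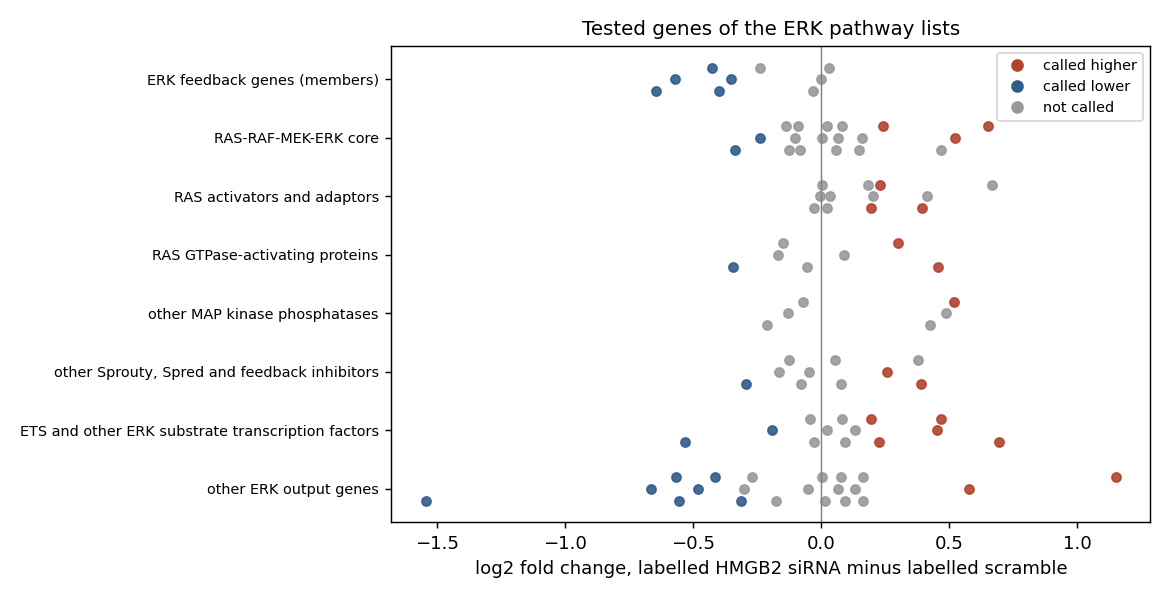
Log2 fold change (horizontal axis, labelled HMGB2 siRNA minus labelled scramble) of each tested gene in the member list (top) and in 7 further lists of the pathway, red where called higher, blue where called lower and grey where not called. In the member list 5 of 9 genes are blue and 0 red, while the further lists hold 18 red and 13 blue genes with IER3 and MYC each standing in 2 lists.

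Other transcripts driven by ERK were called in both directions. Of 21 tested genes of that list, 2 were higher, 7 lower and 12 not called in the HMGB2 siRNA-labelled libraries (HMGB2-high), which is 9.52% higher and 33.3% lower, against 16.7% and 14.1% of all genes tested. The 2 higher genes had the smallest p of the list. CCND1, the cyclin of the early cell cycle that MAP kinase signals induce, had 308 and 323 CPM in the HMGB2 siRNA-labelled libraries against 139.7 and 144 CPM in the scramble-labelled libraries, and its log2 fold change was 1.15 ± 0.07 (SE, n = 2 each; edgeR adjusted p = 4.87e-20). FOSL1, an AP-1 subunit that ERK stabilises, had 141 and 145 CPM in the HMGB2 siRNA-labelled libraries against 97.9 and 93.8 CPM in the scramble-labelled libraries (log2 fold change 0.58). The cytokine gene LIF had 34.7 and 32.4 CPM in the HMGB2 siRNA-labelled libraries against 52.3 and 47.2 CPM in the scramble-labelled libraries (log2 fold change -0.57). EMP1, which encodes a membrane protein, had 29.8 and 33.1 CPM in the HMGB2 siRNA-labelled libraries against 47.4 and 44.8 CPM in the scramble-labelled libraries (log2 fold change -0.56). EGR1, an immediate early factor named after its values were seen, had 46 and 28 counts in the HMGB2 siRNA-labelled libraries against 100 and 78 counts in the scramble-labelled libraries, and its log2 fold change was -1.54 ± 0.26 (SE, n = 2 each; edgeR adjusted p = 4.62e-06). The antisense genes LIF-AS1 and LIF-AS2 overlap exons of LIF.

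The list of ETS and other transcription factors linked to ERK had 5 higher and 2 lower of 13 tested genes in the HMGB2 siRNA-labelled libraries (HMGB2-high). These are 38.5% and 15.4%, against 16.7% and 14.1% of all genes tested. SRF, which partners ERK-phosphorylated ETS factors at immediate early genes, had 105 ± 2.1 CPM in the HMGB2 siRNA-labelled libraries against 76.0 ± 1.9 CPM in the scramble-labelled libraries (SD, n = 2 each), and its log2 fold change was 0.47. ETV6, an ETS repressor, was at 0.45 and ETS1 at 0.23. Leaving out replicate 1 labelled HMGB2 siRNA ended the calls of ETV6 (adjusted p = 0.055), RASA1 (adjusted p = 0.065), FRS2 (adjusted p = 0.0512), RASA2 (adjusted p = 0.336), ETS1 (adjusted p = 0.106), SHC1 (adjusted p = 0.169) and MAPKAPK2 (adjusted p = 0.181). Leaving out replicate 2 of that label also ended those of ETS1 (adjusted p = 0.153), SHC1 (adjusted p = 0.214) and MAPKAPK2 (adjusted p = 0.0536). SHC1 further lost its call with upper-quartile scaling (adjusted p = 0.0739) and total counts (adjusted p = 0.0521), and RASA2 with DESeq2 (adjusted p = 0.0789) and total counts (adjusted p = 0.0532). ETS1 shares exonic sequence with MIR6090 on the opposite strand.

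The libraries held 20340695 to 31852391 counts. Of the marker genes of other cell types, all 3 islet genes (INS, GCG and CHGA) had 0 counts in every library, and the 4 acinar genes and the 3 endothelial genes had at most 4 counts. Of 3 leukocyte genes, PTPRC and CD3E had 0 or 1 count in each library, while CD68, a lysosomal protein of macrophages, had 104 and 109 CPM in the HMGB2 siRNA-labelled libraries and 121 and 98.7 CPM in the scramble-labelled libraries. Of 4 fibroblast genes, COL1A2, DCN and LUM had at most 2 counts, while the collagen gene COL1A1 had 60.4 and 60.5 CPM in the HMGB2 siRNA-labelled libraries and 76.7 and 55.2 CPM in the scramble-labelled libraries. Neither CD68 nor COL1A1 was called.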

How the data were processed

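Poly(A) RNA libraries of 2 groups were aligned with STAR, handled with SAMtools 1.9 and counted with featureCounts of Subread 1.6.3 on the human build hg38, also named GRCh38, as the submitters' processing notes have it. Deposited were raw read counts per gene with the summed exon length, in a table for each library, per the file headers. Strand and multimapping settings are not given in the sources used here, so reads of genes that overlap on opposite strands may not be separable.

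Tables were assigned to samples as recorded in the deposit and to groups by the labels, and nothing was regrouped by HMGB2. Counts were tested with edgeR 4.0.16 in R 4.3.3 (glmQLFit, glmQLFTest), with a term for the group alone, TMM scaling and filterByExpr (smallest count 10, smallest total 15), on all 15161 genes left. The standard error was taken from the quasi-likelihood F statistic, and the 95% interval from it and the t distribution. This fit shares information on spread across genes, so neither is the spread of a gene's own libraries alone. CPM used TMM-scaled totals. With 2 libraries a group, the smallest p of a two-sided exact permutation test of a single value is 0.333. Replicates within a group differed by more than sampling noise (chi-square per degree of freedom 2.93 for HMGB2 siRNA, 5.23 for scramble). The limit of 3 counts covers counting error only.

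In simulated counts of this comparison (14912 genes fitted, 50 or 49 changed at each fold), 32.0% of 1.25-fold, 76.0% of 1.5-fold, 77.6% of 2-fold and 100.0% of 4-fold changes were recovered, with 7 false calls. Far fewer genes changed in the simulation than the 30.8% called in the data, and its spread came from edgeR's own fitted values. The recovery and false calls in the real counts may therefore differ. The members and lists were chosen with earlier results of these data known. By rule the named genes were HMGB2, all members, genes overlapping their exons and up to 4 called genes with the smallest p of each list. Cell type markers are named as well, and further pathway genes where the text says that they were chosen after their values were seen. Alternatives were other scalings and filters, DESeq2 1.42.0, limma-voom (limma 3.58.1), a replicate block, glmTreat, thinned libraries and leaving out each library. The values of some listed pathway genes are not reported here. Promoters came from RefSeq for 6 of the 10 members. Python 3.11.15 and matplotlib 3.10.9 were used.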

Additional observations from a re-analysis of the deposited data

How the results depend on the processing

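HMGB2 kept its direction and call under all 14 alternatives (log2 fold change 3.02 to 3.11), and no called gene named here reversed. Without 1 library, the number of members called lower ran from 3 (without replicate 2 labelled HMGB2 siRNA, which ended the calls of DUSP6 and ETV4) to 5, that of all genes called higher from 1481 to 2904 and lower from 903 to 2291, and that of further pathway genes called higher from 9 to 25 and lower from 7 to 14. In these fits the lone library of a group is assumed to vary like the others. Both lowest counts of all genes came without replicate 1 labelled HMGB2 siRNA. Tested against a 1.5-fold change (glmTreat), 0 members were called lower, with 213 genes called higher and 45 lower in all and 1 further pathway gene in each direction, because that test asks for larger changes. DESeq2 called 1286 genes lower, and the cause was not tested. The replicate numbers of the labels were not taken to pair libraries (correlation of replicate differences between groups -0.014 over genes), and with the number as a replicate block 5 members were called lower and 0 higher. Among the named genes the block ended only the call of RASGRF2 (adjusted p = 0.0605). Thinned to the smallest total, the libraries still gave 5 members called lower, with 2462 genes called higher and 2038 lower in all.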
